A study of Mus musculus with 25 samples.

Results

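A small population of αTC1 cells inside a much larger population of βTC6 cells was examined by ATAC-seq in 5 of the 19 ATAC-seq libraries of the series, which holds 25 samples in all. The 5 libraries were mixtures of 10, 20 and 30% αTC1 in βTC6 cells, 1 library each, and pure βTC6 replicates 4 and 5. αTC1 (alpha TC1 clone 6) and βTC6 (Beta-TC-6) are mouse islet tumour lines, each raised from a mouse carrying a viral T antigen transgene under a hormone gene promoter, and both were grown untreated. Pure αTC1 replicates 4 and 5 gave the level that a peak reaches when every cell is αTC1. Replicates 4 and 5 were grouped with the mixtures because the study's library statistics compute the share of mitochondrial reads in 1 way for them and in another for replicates 1 to 3. The methods describe the same preparation for all of these libraries. Each line is a single clone or tumour line, the labels do not say that replicates were separate cultures, and no mixture was repeated, so p-values measure the spread between these libraries only.

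ATAC-seq uses a transposase that cuts and tags DNA where nucleosomes leave it open, so that promoters and enhancers in use appear as peaks of reads. Glucagon-producing alpha cells and insulin-producing beta cells of the islet share most of their open chromatin, and differ chiefly at distal elements and at genes of cell identity such as *Gcg*, which encodes glucagon, and *Pdx1*, which maintains the beta fate. In a mixture a peak is the sum of what each line contributes, so a peak that only a minor line opens stays small, and its visibility depends on how strong it is in the minor line and how closed it is in the major line.

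In RNA-seq of the pure cultures (3 libraries each), the 3 alpha markers given here (*Gcg*, *Irx1* and *Irx2*) were higher in αTC1 and all 5 beta markers were higher in βTC6. Of the other listed alpha genes, *Pou3f4*, *Avpr1b* and *Kcna5* were also higher in αTC1, while *Gc* and *Dpp4* were higher in βTC6. *Slc38a5* leaned toward αTC1 by a log2 of only 0.456 (edgeR adjusted p = 0.0213), short of the cut-off of 2 used for RNA calls below. *Ttr* had 835 ± 154 FPKM in αTC1 and 1116 ± 525.9 in βTC6 (edgeR adjusted p = 0.215). *Gcg*, the glucagon gene, had 12929 ± 1282 FPKM in αTC1 and 229 ± 50.4 in βTC6, and *Ins2*, an insulin gene, had 0.34 ± 0.26 in αTC1 and 30081 ± 6150 in βTC6 (mean ± SD, n = 3). The βTC6 libraries also held *Sst*, the somatostatin gene, at 256 ± 61.9 FPKM, *Ppy* at 26 ± 23.7 and the ductal keratin *Krt7* at 35.7 ± 12.4. The other listed delta and ductal markers did not go with these, as *Hhex* averaged 0.00667 FPKM and *Krt19* 0 in βTC6. The epsilon marker *Ghrl* averaged 0.297 there. Markers of the acinar, fibroblast, endothelial and immune lists lay at or below 3.65 FPKM on average in both lines. No RNA-seq library was made from a mixture.

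Each library of the mixtures and pure βTC6 held between 5878022 and 10374903 reads in 65053 consensus peaks. Their values are TMM-normalized read counts, in which 1 read was worth between 0.0939 and 0.168, and which list no peak below 1 read. Between 1.26 and 2.16% of peaks stood at that lowest value in these 5 libraries, where 1 read cannot be told from none. The pure libraries differed from each other in log2 normalized read count by between -1.0 and 0.89 at the 5th and 95th percentiles of peaks, which is the background against which a minor line has to show.

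From αTC1 and βTC6 replicates 1 to 3, which enter the tests of the mixtures only in alternatives that name them, 3135 peaks were taken as αTC1 peaks and 8157 as βTC6 peaks (limma FDR under 5% and a log2 fold change over 2). The 3135 αTC1 peaks are the places where a minor αTC1 population can be sought, and the consensus peaks as a whole serve as the comparison.

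The following stretches are the 200 bases around the centres of 4 of the αTC1 peaks that stood out most at 10% αTC1, shown because these places reveal the smallest αTC1 fraction. They are the plus strand of mm9, read 5′ to 3′, and are named by the gene with the nearest start site. Capitals mark 4 motifs searched on both strands, which are CAGCTG (an E-box), TGTTTAC (forkhead), TAATTA (homeodomain) and TGACTCA (AP-1).
Near Gm5921, chr9:115514612-115514811: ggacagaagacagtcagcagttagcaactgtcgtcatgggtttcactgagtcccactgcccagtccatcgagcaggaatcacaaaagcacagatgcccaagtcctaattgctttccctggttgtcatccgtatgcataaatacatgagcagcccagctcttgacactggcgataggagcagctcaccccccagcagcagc
Near Gm17595, chr2:55670675-55670874: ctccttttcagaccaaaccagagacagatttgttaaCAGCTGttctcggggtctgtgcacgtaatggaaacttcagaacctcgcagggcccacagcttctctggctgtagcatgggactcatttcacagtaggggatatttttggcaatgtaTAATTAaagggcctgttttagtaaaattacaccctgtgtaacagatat
Near Vwa3b, chr1:37179426-37179625: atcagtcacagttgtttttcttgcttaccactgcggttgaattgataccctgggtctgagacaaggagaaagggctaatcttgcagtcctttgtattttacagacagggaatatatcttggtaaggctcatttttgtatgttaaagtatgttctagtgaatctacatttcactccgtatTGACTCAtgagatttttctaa
In *Gli2*, chr1:120873323-120873522: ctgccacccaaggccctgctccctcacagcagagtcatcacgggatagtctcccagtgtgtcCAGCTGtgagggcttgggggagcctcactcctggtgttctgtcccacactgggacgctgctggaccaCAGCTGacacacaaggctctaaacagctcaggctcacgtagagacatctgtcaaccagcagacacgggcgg

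CAGCTG was found in 2 of these 4 windows, and the window near Gm5921 held none of the 4 motifs. Over all 3135 αTC1 peaks CAGCTG lay in 31.3% of windows, against 17.2% of all consensus peaks and 14.5% of βTC6 peaks. TGTTTAC lay in 8.45% of αTC1 peaks, 6.32% of all peaks and 7.98% of βTC6 peaks, TGACTCA in 12.2, 7.64 and 8.34%, and TAATTA in 4.66, 6.92 and 12.9%. A match describes the letters of a window and not a bound site.

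At 10% αTC1, 16 peaks were higher than in pure βTC6, which is 0.0246% of the 65053 tested, and all 16 were αTC1 peaks (limma on log2(normalized read count + 1), Benjamini-Hochberg adjusted p under 0.05, the lone mixture being assumed to vary like the pure pairs). The most clearly raised of them lay at chr9:115514246-115515178, between genes and 167013 bases from the nearest start site, that of Gm5921. Its normalized read count was 1.28 and 0.657 in pure βTC6 replicates 4 and 5, 23.1 at 10% αTC1, 49.2 at 20% and 63.2 at 30%, and 134 and 154 in pure αTC1. Behind these values stood 9 and 7 reads in the pure βTC6 libraries and 172 reads at 10%. The log2 change at 10% was 3.63 ± 0.29 (SE, adjusted p = 0.000561).

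The second, at chr2:55670393-55671158 and 380504 bases from the start of Gm17595, went from 0.713 and 0.376 in pure βTC6 to 14, 24.5 and 40.8 at 10, 20 and 30% αTC1, and to 80.4 and 93.7 in pure αTC1. At chr1:37178786-37180266, between genes and 31163 bases from the start of *Vwa3b*, the values were 2.14 and 2.35 in pure βTC6 and 17.3, 23.8 and 35.3 in the mixtures. Every mixture lay above both pure βTC6 libraries at each of these peaks, in the order of its αTC1 content. The same order held at 7.83% of all consensus peaks and 60.0% of all αTC1 peaks. The peaks named here were picked for their rise at 10%.

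*Gli2*, a transcription factor of Hedgehog signalling, held 2 of the 16 peaks, both in its introns. At chr1:120872999-120873847, 5742 bases from a start site, the values were 2.14 and 2.25 in pure βTC6 and 15.7, 31.0 and 41.2 at 10, 20 and 30% αTC1. At chr1:120748523-120749305, 130251 bases from a start site, they were 3.71 and 3.94 in pure βTC6 and 20.6, 32.0 and 45.2 in the mixtures. The log2 changes at 10% were 2.39 ± 0.30 and 2.16 ± 0.27 (SE), with adjusted p = 0.0193 for both. The next 4 were the peaks near 4930564D02Rik (chr3:104991803-104992716), *Morc1* (chr16:48372403-48373184), Gm5921 again (chr9:115452504-115453250) and *Thnsl2* (chr6:71015264-71016056), which stood at 9.82 to 15.6 at 10% αTC1 and at 2.14 or below in both pure βTC6 libraries.

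Over all 16, the normalized read count ran from 0.0939 to 3.94 in the pure βTC6 libraries and from 7.80 to 23.1 at 10% αTC1. These were 58 to 172 reads at 10% (the plot of the 16 peaks by library). That the ranges do not overlap follows from the choice of the peaks by this contrast. At 10%, 32.9% of all consensus peaks and 83.2% of αTC1 peaks lay above both pure βTC6 libraries. Of the 16, 10 were intergenic, 4 intronic and 2 exonic, none lay within 1 kb of a start site, and 12 lay more than 10 kb away. Of all αTC1 peaks 44.7% were intergenic, 7.27% lay within 1 kb and 69.9% more than 10 kb away. Over 100 kb from a start site lay 6 of the 16 and 557 of the 3135 αTC1 peaks, and the median distances were 58695 and 24607 bases. These differences in place were not tested. The weakest to pass at 10% had an adjusted p of 0.0347 (near *Ndufa4* and *Ypel4*), and the first to miss it was an intronic αTC1 peak of *Vps13d*, at 4.57 and 2.91 in pure βTC6 and 16.4 at 10% (adjusted p = 0.0578).

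**Figure D1:**
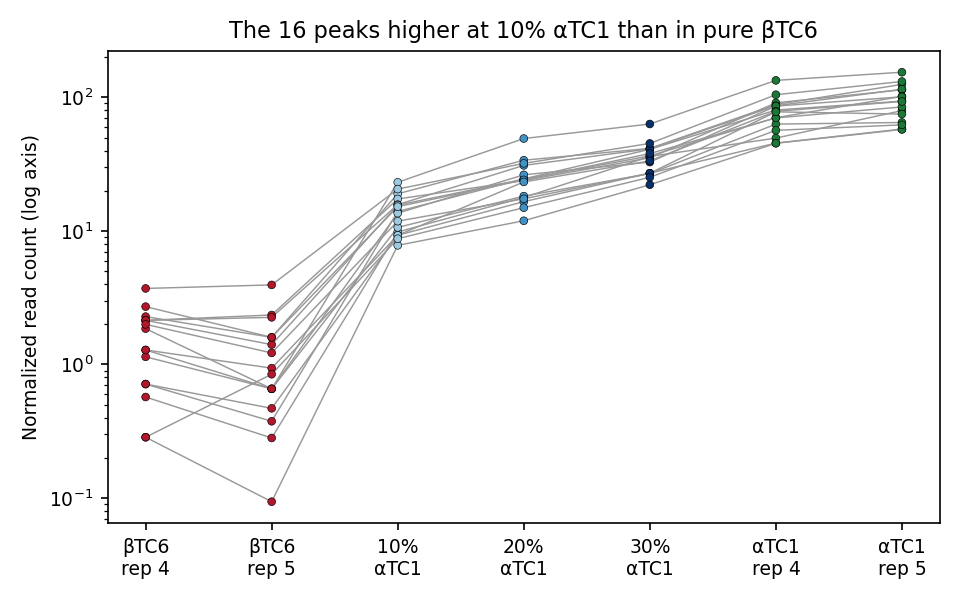
Normalized read count (log axis) of the 16 peaks higher at 10% αTC1 than in pure βTC6, in the 2 pure βTC6 libraries, the 3 mixtures and the 2 pure αTC1 libraries; each line joins the values of 1 peak. Every peak lies between 0.0939 and 3.94 in pure βTC6 and between 7.80 and 23.1 at 10% αTC1, and rises with each further step of αTC1. The gap at 10% follows from the choice of the peaks by that contrast.

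No peak was lower at 10% αTC1 (limma, with 634 peaks lower at an unadjusted p under 0.05, and edgeR on the recovered reads also called 0). The count of 16 depended on the low values. With 5 in place of 1 added before the logarithm no peak passed by limma (1400 higher at an unadjusted p under 0.05), while edgeR on the recovered whole reads called 107 (0.164% of peaks), all 107 of them αTC1 peaks and all 16 above among them. Without βTC6 replicate 5, 50 peaks were higher and 66 lower, and without αTC1 replicate 4 or 5, 99 or 90 were higher and 7 lower. Without βTC6 replicate 4, 20 were higher and 3 lower, and 9 of the 16 remained among them.

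At 20% αTC1, 252 peaks were higher (0.387%), of which 246 were αTC1 peaks, and 7 were lower (0.0108%), of which 1 was a βTC6 peak and 6 were of neither line. At 30%, 1760 were higher (2.71%), of which 1342 were αTC1 peaks, and 103 were lower (0.158%), of which 30 were βTC6 peaks. No αTC1 peak was lower and no βTC6 peak was higher in any of the 3 mixtures. Thus 0.510% of the αTC1 peaks were called at 10%, 7.85% at 20% and 42.8% at 30%. Of the 418 peaks called at 30% outside the αTC1 peaks, 385 still had a log2 fold change over 1 toward αTC1 in replicates 1 to 3, with a median of 1.69, and 413 had one over 0. The counts moved with the value added and the tool. With 5 added before the logarithm, 21 peaks were higher at 20% and 365 at 30%, while edgeR on the recovered reads called 843 and 2379. The number of αTC1 peaks called moved with the libraries used. At 20%, 665 or 656 peaks were higher without αTC1 replicate 4 or 5, of which 584 or 579 were αTC1 peaks. At 30%, 888 αTC1 peaks were higher without βTC6 replicate 5. The lower peaks at 20% numbered 22 to 103 when any pure library was left out, and at 30% 254 were lower without either αTC1 replicate and 289 without βTC6 replicate 5.

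Far more αTC1 peaks lay above both pure βTC6 libraries than passed the test. At 10% αTC1 this held for 83.2% of αTC1 peaks, against 32.9% of all consensus peaks, at 20% for 95.7% against 33.7%, and at 30% for 98.5% against 36.2%. The median log2 change of the αTC1 peaks was 0.78, 1.23 and 1.64 at 10, 20 and 30%, while that of all consensus peaks was 0.04, 0.02 and -0.01.

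When the percentage of αTC1 was fitted as a number over the 5 libraries, 3128 peaks rose (4.81%), of which 1880 were αTC1 peaks, or 60.0% of them. In the other direction 805 fell (1.24%), of which 616 were βTC6 peaks. No αTC1 peak fell and no βTC6 peak rose. The counts moved with each library left out. Without the 30% mixture no peak passed by limma (4789 rising and 1793 falling at an unadjusted p under 0.05), without the 20% mixture 553 rose and 20 fell, without βTC6 replicate 4 the counts were 5709 and 3845, and without βTC6 replicate 5 they were 950 and 122. Without the 10% mixture 2475 rose and 346 fell. Over all 5 libraries, edgeR on the recovered reads called 2892 rising and 968 falling. Other settings moved further, with 372 rising and 1 falling as 3 mixtures against 2 pure libraries. Among peaks with a mean of at least 5, 1850 rose and 887 fell.

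How much of the αTC1 level each peak showed was measured as its apparent αTC1 share, the gain of the mixture over the mean of pure βTC6 replicates 4 and 5 divided by the gain of pure αTC1 replicates 4 and 5. The median over the 3135 αTC1 peaks was 11.8% at 10% αTC1 cells, 23.9% at 20% and 38.1% at 30%, with quartiles of 6.81 and 17.3%, 17.6 and 30.5%, and 30.2 and 46.5%. The medians lay above the mixed proportions in each library. They moved with the libraries used as the ends of the scale, between 10.9 and 13% at 10%, 22.9 and 25.5% at 20% and 36.4 and 40.0% at 30% when 1 pure library was left out at a time. Measured instead as the loss at the 8157 βTC6 peaks, the medians were 7.62, 23.0 and 40.8%, with wider quartiles of -8.47 and 23.8% at 10%. Peaks share libraries, so these spreads are not errors over repeated mixtures.

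The called share of αTC1 peaks climbed with their strength in pure αTC1. In replicates 1 to 3 of αTC1, 595 αTC1 peaks had a mean normalized read count under 10, 1134 one of 10 to 20, 931 of 20 to 40, 377 of 40 to 80, and 98 of 80 and over. At 10% αTC1 no peak under 40 was called by limma, against 9 of the 377 at 40 to 80 (2.39%) and 7 of the 98 at 80 and over (7.14%). At 20% the called share was 0.168, 0.794, 8.49, 30.8 and 41.8% from the weakest class to the strongest. At 30% it was 16.8, 27, 58.5, 80.1 and 90.8%. By edgeR on the recovered reads, the called shares at 10% were 0.168, 0.617, 3.01, 12.7 and 23.5% in the same order.

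The apparent share hardly followed strength. Its median at 10% αTC1 went from 10.5% in the weakest class to 13% in the strongest, at 20% it lay between 23.8 and 24.6% in all 5 classes, and at 30% between 36.3 and 39.3%. What narrowed with strength was the spread, with quartiles at 10% of 2.70 and 18.2% for the weakest peaks and of 10.9 and 16% for the strongest (the plot of calls and shares by strength). Even among the weakest peaks 69.2% lay above both pure βTC6 libraries at 10%, and 98.0% did so among the strongest.

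**Figure D2:**
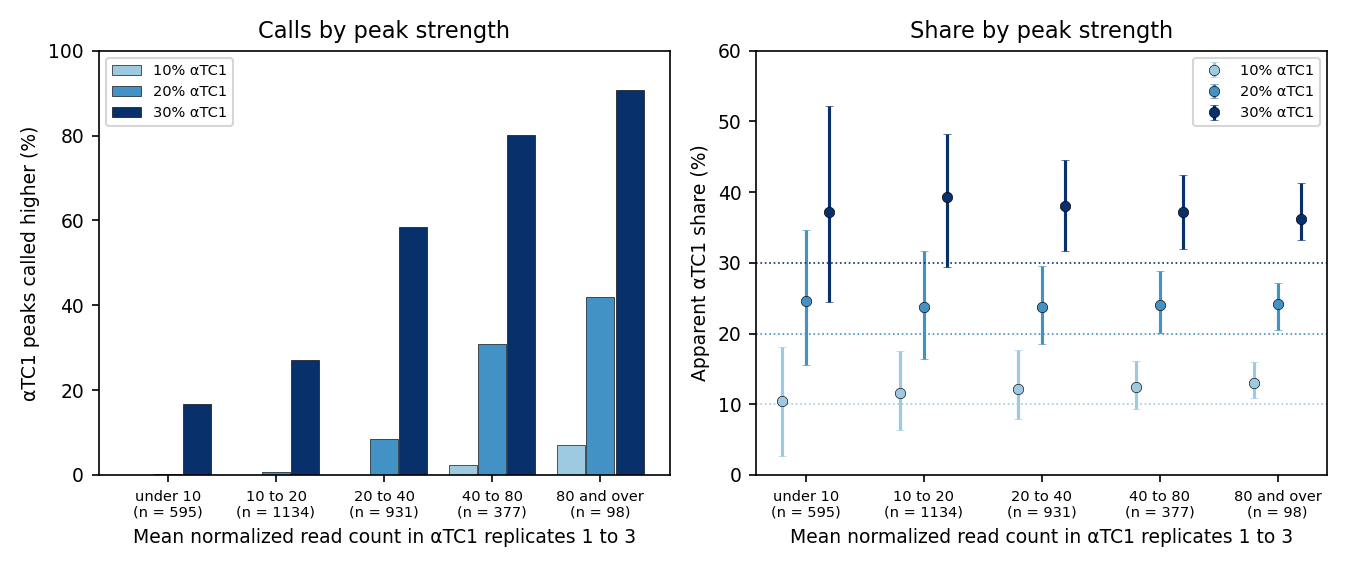
Left, percent of αTC1 peaks called higher than in pure βTC6 (limma, adjusted p under 0.05) in each mixture, by mean normalized read count in αTC1 replicates 1 to 3; right, median apparent αTC1 share of the same peaks, with bars from the lower to the upper quartile and dotted lines at the mixed percentages. Calls at 20% climb from 0.168 to 41.8% with strength, whereas the median share stays between 23.8 and 24.6%.

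The level in βTC6 counted as well, within a class of strength. Of the αTC1 peaks of strength 40 to 80, 19 of 20 with a βTC6 level of 1 to 2 in replicates 1 to 3 were called at 20% (95%), against 48 of 69 with a level of 2 to 4 (69.6%) and 48 of 287 with 4 and over (16.7%). At strength 20 to 40 the called shares at 20% were 36.0% of 25 peaks under 1, 16.8% of 137 at 1 to 2, 9.41% of 393 at 2 to 4 and 2.66% of 376 at 4 and over. At strength 80 and over, 5 of 8 peaks with a βTC6 level of 2 to 4 were called at 10%, and none of the 88 with 4 and over. On the log2 scale of the test the same gain in reads is a larger change where βTC6 is low.

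The 5 strongest αTC1 peaks not called at 10% were open in βTC6 as well. The peak at chr11:3092547-3094031, in an intron 121 bases from a start site of *Sfi1*, a centrosome gene, had 179 and 148 in pure βTC6, then 256, 338 and 495 in the mixtures, and 865 and 848 in pure αTC1. Its 10% value was above both pure libraries, but the log2 change was 0.65 ± 0.22 (SE, adjusted p = 0.864). The peak near Gm6578 (chr6:12067168-12068503) had 49.9 and 57.8 in pure βTC6 and 82.6, 84.1 and 111 in the mixtures. The intronic peak nearest to *Gadd45a*, a DNA damage response gene (chr6:66997927-67000113), had 45.9 and 30.6, then 57.6, 69.4 and 87.2. At the intronic peak of *Ncoa2*, a nuclear receptor coactivator (chr1:13136615-13137581), the values were 23.5 and 36.1, then 54.7, 80.7 and 92.8. Near *Nobox*, a homeobox gene of the oocyte (chr6:43287046-43288198), they were 21.0 and 20.1, then 39.8, 63.1 and 86.2. Their apparent shares at 10% were 13.4, 17.6, 12.1, 14 and 11.1%, and all 5 were called at 30% (adjusted p from 0.000482 to 0.0225).

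The called share differed less by distance from a start site than by strength. αTC1 peaks were rarely at promoters, with 228 of 3135 (7.27%) within 1 kb of a start site against 22.4% of all consensus peaks. Of those 228, none was called at 10% and 13 at 20% (5.70%), compared with 6.42% of the 716 peaks at 1 to 10 kb, 8.45% of the 1634 at 10 to 100 kb and 8.80% of the 557 farther away. Among peaks of strength 40 and over the shares at 20% were 31.3% of 32 peaks, 28.1% of 89, 33.6% of 268 and 37.2% of 86, from the nearest class to the farthest, and at 30% they were 90.6, 79.8, 81.3 and 84.9% (the plot of calls by distance). No test was made between the classes. By annotation, 10.2% of 167 exonic, 7.33% of 1568 intronic and 8.14% of 1400 intergenic αTC1 peaks were called at 20%.

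**Figure D3:**
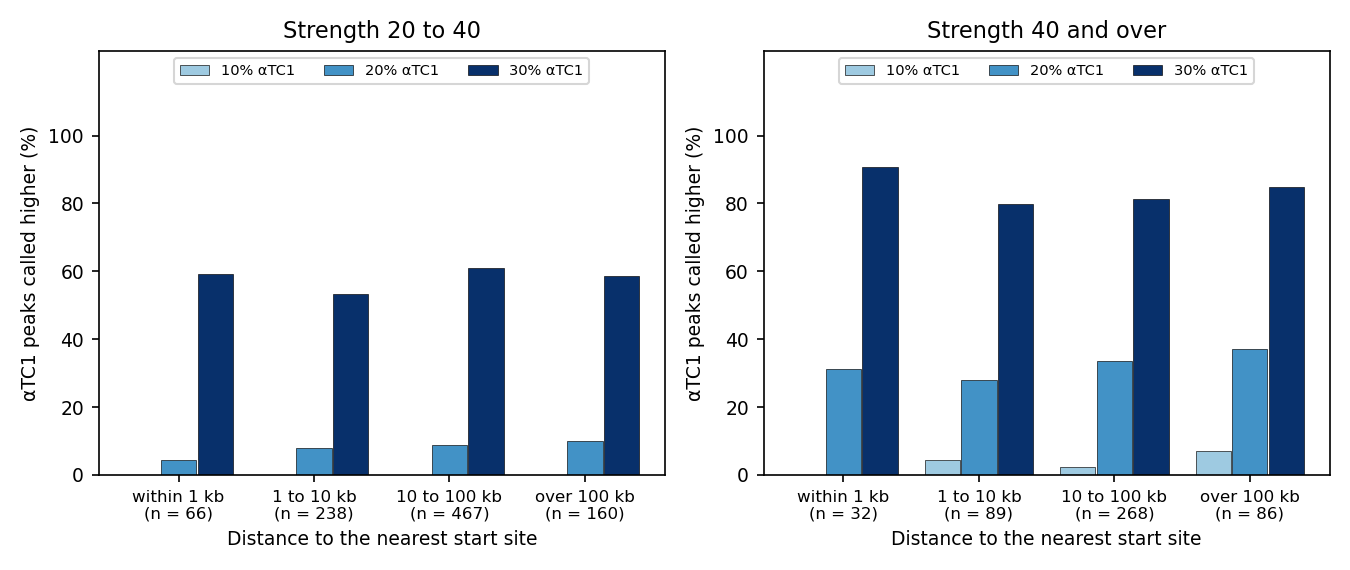
Percent of αTC1 peaks called higher than in pure βTC6 in each mixture, by distance from the nearest start site, for peaks of strength 20 to 40 (left) and of 40 and over (right); n is the number of peaks in a class. Within the stronger class 79.8 to 90.6% are called at 30% at every distance.

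The 246 αTC1 peaks called at 20% and the 2889 not called had the same median GC content of 48.5% in the 200-base window. They differed in width, with medians of 850.5 and 642 bases, and CAGCTG lay in 36.6% of the called and 30.8% of the others. These are descriptions of peaks chosen by the mixtures' own values, and strength goes along with them, at medians of 45.9 and 16.9 in αTC1 replicates 1 to 3.

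The αTC1 peaks were spread unevenly over the chromosomes. Chromosomes 1 and 6 held 860 of them, which is 27.4% against 14.8% of all consensus peaks, and 96 of the 246 called at 20% (39.0%). Chromosome 14, with 4.35% of consensus peaks, held 15 αTC1 peaks (0.478% of them) and 987 βTC6 peaks (12.1%). The level of whole chromosomes moved too. The median log2 change over all consensus peaks of chromosome 6 was 0.17, 0.24 and 0.30 at 10, 20 and 30% αTC1, and that of chromosome 1 was 0.12, 0.17 and 0.23, while chromosome 14 stood at -0.00, -0.13 and -0.37 (the plot by chromosome). Between the pure lines, αTC1 minus βTC6 replicates 4 and 5, the medians were 0.77 for chromosome 6, 0.60 for chromosome 1 and -1.59 for chromosome 14. Whether these differences come from the number of chromosome copies in each line was not tested.

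**Figure D4:**
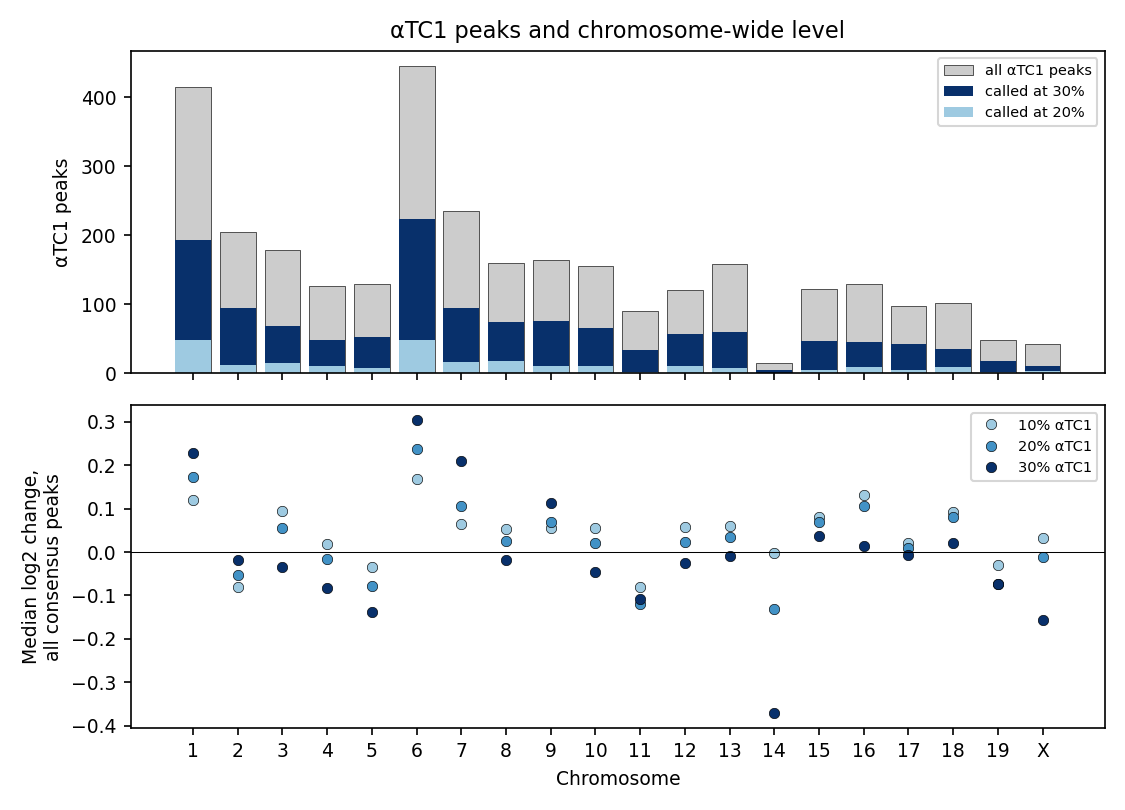
Top, number of αTC1 peaks on each chromosome, with those called at 30 and 20% αTC1 drawn over them; bottom, median log2 change from pure βTC6 over all consensus peaks of the chromosome in each mixture. Chromosomes 1 and 6 carry 860 αTC1 peaks and rise with αTC1 content, and chromosome 14 carries 15 and falls to -0.37 at 30%.

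The apparent share varied less between chromosomes, with medians over αTC1 peaks from 8.59% (chromosome 2) to 14% (chromosome X) at 10% αTC1, and from 35.1 to 41.3% at 30%. On chromosome 2 the pure βTC6 replicates 4 and 5 also differed most, by a median log2 of 0.29.

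Summing the peaks nearest to each gene showed which loci gave αTC1 away. Of 17039 gene loci with a peak, 782 rose with αTC1 content (4.59%) and 225 fell (1.32%). With reads scaled by their total in peaks in place of TMM the counts were 721 and 358, so the share of falling loci depends on the scaling. Leaving out the 20% or the 30% mixture left no locus past the threshold by limma (1972 and 1150 rising at an unadjusted p under 0.05), without the 10% mixture 374 rose and 36 fell, without βTC6 replicate 4 2480 and 1921 did, and without βTC6 replicate 5 298 and 58 did. Loci with several αTC1 peaks rose most often, at 53.0% of the 217 loci with 3 or more, 33.2% of the 370 with 2, 18.6% of the 1555 with 1, and 1.71% of the 14897 with none.

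The largest t-statistic was that of *Avpr1b* (chr1:133495816-133508577), the vasopressin receptor of the pituitary and islet, with 6 peaks of which 4 were αTC1 peaks. Its summed normalized reads were 20.5 and 16.4 in pure βTC6 and 39.1, 66.4 and 99.5 at 10, 20 and 30% αTC1, and the fitted log2 change from 0 to 30% was 2.43 ± 0.20 (SE, adjusted p = 0.00853). *Gli2* (chr1:120730709-120950196), with 9 αTC1 peaks among 14, went from 27.8 and 29.2 to 93.3, 149 and 215, a fitted change of 2.96 ± 0.29. *Amotl1*, a protein of cell junctions (chr9:14346410-14447973), went from 21.8 and 26.8 to 53.0, 79.2 and 110. *Atoh8*, a basic helix-loop-helix transcription factor (chr6:72156171-72185571), went from 82.3 and 81.5 to 136, 187 and 223. In all 4 loci each mixture lay above both pure libraries and above the mixture before it, an order that their choice by the trend favours.

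The other 6 of the 10 loci with the largest t were *Vps13d*, *Smok2a*, Gm5784, *Siglech*, *Aldh1l1* and *Chchd6*. *Vps13d*, a lipid transfer protein, stood at 68.9 and 63.0 in pure βTC6 and at 93.2, 124 and 169 in the mixtures, and *Chchd6*, a protein of the mitochondrial inner membrane, at 28.0 and 29.3 and then 59.7, 79.3 and 109. *Aldh1l1*, a folate enzyme, stood at 34.8 and 41.9 and then 57.0, 74.5 and 115. The pure lines' RNA was higher in αTC1 for 4 of the 7 tested, which were *Avpr1b*, *Gli2*, *Amotl1* and *Atoh8* (edgeR FDR under 5% and log2 fold change over 2). *Gli2* RNA was 6.69 ± 0.82 FPKM in αTC1 and 0.11 ± 0.04 in βTC6, and *Atoh8* RNA 30.4 ± 7.18 and 3.10 ± 0.76 (SD, n = 3). *Smok2a*, Gm5784 and *Siglech* were below 1 FPKM in both lines, so the loci rose where little or no RNA was measured. *Smok2a* and Speer4f belong to families of near-identical copies, so their reads are uncertain.

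RNA is a readout that the mixtures and their peaks do not share. Of the 445 rising loci also tested by RNA-seq, 100 were higher in αTC1 RNA (22.5%) and 6 in βTC6 RNA (1.35%), where over all 11165 loci tested in both these shares were 3.92% and 10.4%. The median log2 fold change of RNA, αTC1 over βTC6, was 0.99 over the rising loci and -0.01 over all. Of the 135 falling loci tested, 96 were higher in βTC6 RNA (71.1%) and 2 in αTC1 RNA. Most rising loci were thus not called in RNA at this threshold.

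The alpha transcription factor genes *Irx1*, *Irx2* and *Pou3f4* were higher in αTC1 RNA, and none of their 3 loci passed the test for a rise with αTC1 content (lowest adjusted p = 0.0923, median fitted log2 change 0.40 against 0.05 over all loci, and 4.59% of all loci rose). The *Irx1* locus had 143 in each pure βTC6 library and 153, 191 and 181 in the mixtures. The *Irx2* locus had 147 and 138, then 149, 165 and 163. The peaks at the starts of *Irx1*, *Irx2* and *Pou3f4* were αTC1 peaks at none of the 3 genes, and they stood between 18 and 59.2 in pure βTC6.

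Single distal peaks of these genes did pass. A distal *Irx2* peak (chr13:73062055-73062687, 292326 bases away) had 3.0 and 4.79, then 10.4, 19.9 and 23.7, and rose by 2.51 ± 0.37 (adjusted p = 0.00915). A distal *Irx1* peak (chr13:72235914-72236741) had 3.14 and 1.69, then 6.19, 10.7 and 16.5, and rose as well (adjusted p = 0.0116). The strongest αTC1 peak of *Pou3f4* (chrX:107966350-107967059) had 0.999 and 1.78, then 4.57, 5.20 and 6.55, with an adjusted p of 0.0491 that was lost under 6 of 10 alternatives.

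Of the alpha hormone and secreted protein genes, *Gcg*, *Ttr*, which encodes transthyretin, and *Gc*, the vitamin D binding protein, had peaks assigned to them and *Pcsk2* had none, and none of the 3 loci rose (lowest adjusted p = 0.147). The *Gcg* promoter peak (chr2:62321417-62322494, 248 bases from the start) was an αTC1 peak that was also open in βTC6, at 32.2 and 23.3 in pure βTC6 and 39.0, 49.7 and 63.0 in the mixtures, against 155 and 148 in pure αTC1. It rose by 1.18 ± 0.20 (SE, adjusted p = 0.0118). The *Gc* start peak, a peak of neither line, had 4.71 and 10.9 in pure βTC6 and 2.18 and 0.867 in pure αTC1. In the mixtures it had 10.8, 8.35 and 9.91, without a called trend (limma adjusted p = 0.690). RNA of *Gc* was listed at 0 FPKM in αTC1.

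Among the alpha receptors, enzymes and channels, *Avpr1b* and *Kcna5* rose, 2 of 5 loci against 4.59% of all, and *Dpp4*, *Fap* and *Slc38a5* did not pass. The list was drawn up with earlier results of these data known. The paper itself shows the *Kcna5* promoter peak following αTC1 content in these mixtures. The count of 2 of 5 is therefore a description and no independent test. *Kcna5*, a voltage-gated potassium channel (chr6:126482571-126485573), had 7 αTC1 peaks among 11, and its locus stood at 7.70 and 3.29 in pure βTC6, at 19.5, 31.4 and 53.3 in the mixtures and at 120 and 144 in pure αTC1. The fitted change of 3.20 ± 0.44 (SE, adjusted p = 0.0127) was the largest of the listed genes. Its promoter peak (chr6:126485017-126485773, 178 bases from the start) had 1.28 and 0.469, then 5.24, 10.0 and 8.57, and it rose by 2.65 ± 0.56 (adjusted p = 0.0239). The strongest *Avpr1b* peak (chr1:133483270-133484005, 12179 bases away) had 5.14 and 3.29, then 13.6, 25.3 and 33.8, with 87.8 and 88.8 in pure αTC1. *Dpp4*, a peptidase gene beside *Gcg*, went the other way in level, with 176 and 135 in pure βTC6 and 111, 124 and 105 in the mixtures (adjusted p = 0.145), and its RNA was higher in βTC6.

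**Figure D5:**
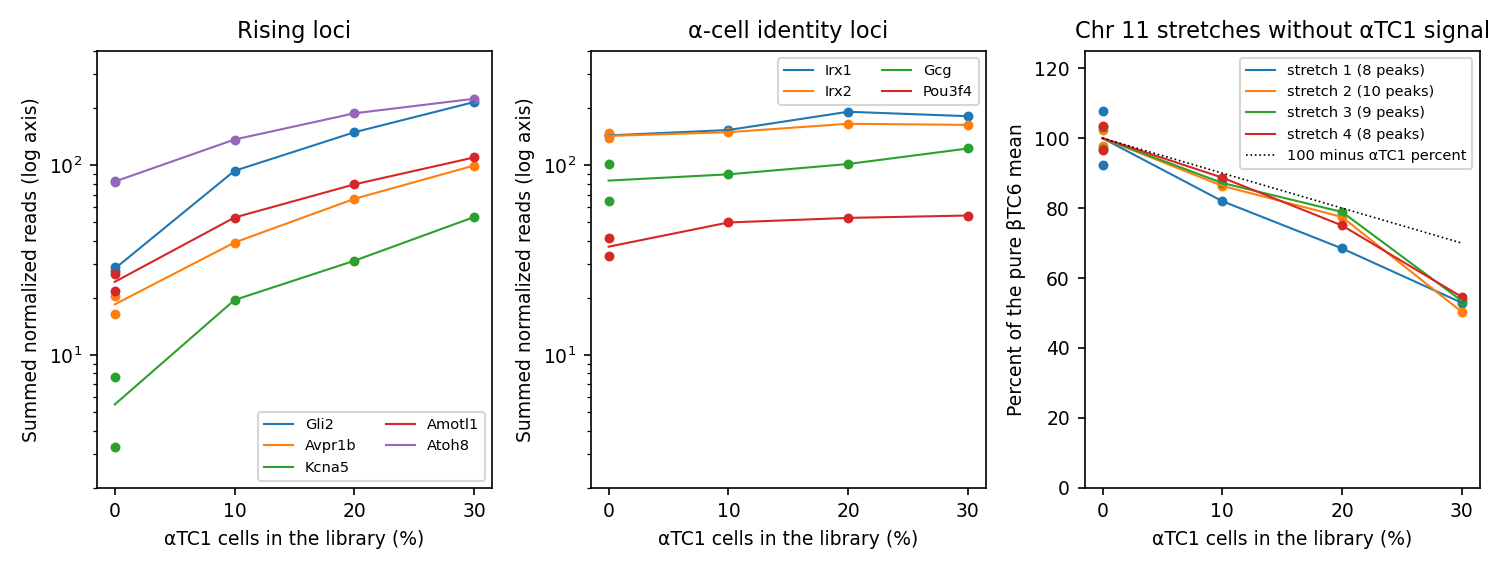
Left and middle, summed normalized reads (log axis) of the peaks nearest to each gene, over the percent of αTC1 cells, for 5 rising loci and 4 loci of alpha cell identity; points at 0 are the 2 pure βTC6 libraries and lines start at their mean. Right, mean level of 4 stretches of chromosome 11 at 1 read per peak in αTC1, as a percent of the pure βTC6 mean, with a dotted line at 100 minus the percent of αTC1; at 30% αTC1 they stand at 50.3 to 54.6%.

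Few beta cell loci fell with αTC1 content. Of the 10 beta genes, all with peaks, 2 fell (*Pdx1* and *Slc2a2*, which encodes the glucose transporter GLUT2) and none rose, against 1.32% of loci falling. This list, too, was drawn up with earlier results of these data known. The *Pdx1* locus had 117 and 104 in pure βTC6, 94.0, 83.4 and 78.0 in the mixtures, and 43.5 and 53.2 in pure αTC1, a fitted change of -0.52 ± 0.12 (SE, adjusted p = 0.0474). The *Slc2a2* locus had 140 and 151, then 154, 116 and 91.2 (adjusted p = 0.0458). Both calls were lost under 5 of 8 alternatives, without each of βTC6 replicate 5 and the 3 mixtures among them. The *Ins1* locus, with 12 βTC6 peaks among 25, had 249 and 371 in pure βTC6 and 342, 283 and 204 in the mixtures, so the 10 and 20% mixtures lay between the pure libraries (adjusted p = 0.243). The only peak assigned to *Ins2* had 31.8 and 19.8, then 20.4, 18.6 and 16 (adjusted p = 0.219 for the locus). The other 8 beta loci, those of *Nkx6-1*, *Mafa*, *Pax4*, *Ins1*, *Ins2*, *Iapp*, *Ucn3* and *G6pc2*, had adjusted p-values from 0.194 to 0.916. *Nkx6-1*, a beta cell transcription factor, had an αTC1 peak assigned to it, 280762 bases from its start (chr5:101813074-101813892), at 1.57 and 0.282 in pure βTC6 and 8.07, 14.2 and 28.1 in the mixtures (trend adjusted p = 0.00811). That peak was chosen for mention after its values were seen.

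The loci that fell with the most negative t were *Tmem215*, *Dgkh*, Gm16478, *Rgs9* and Speer4f. *Tmem215*, a membrane protein gene, stood at 146 and 142 in pure βTC6 and at 124, 97.8 and 80.7 in the mixtures, a fitted change of -0.83 ± 0.11 (SE, adjusted p = 0.0120), and its RNA was listed at 0 FPKM in αTC1 against 29.5 ± 1.53 in βTC6. *Dgkh*, a diacylglycerol kinase gene, stood at 165 and 169 and then 146, 120 and 96.3. Over all 8157 βTC6 peaks, 6705 lay below both pure libraries at 30% αTC1 (82.2%, against 37.2% of all peaks) while 30 were called. The 5 βTC6 peaks with the most negative t at 30% lay near *Dhrs2*, *Elf4*, *Gpc5*, *Slc35f3* and *Bcor*. The *Slc35f3* peak (chr8:128712591-128713115) had 36.8 and 31.6 in pure βTC6 and 29.6, 24.9 and 10.2 in the mixtures, a log2 change at 30% of -1.64 (adjusted p = 0.0177). The *Dhrs2* peak (chr14:55898226-55898391) had 5.99 and 3.0 in pure βTC6 and 0.941, 0.411 and 0.168 in the mixtures, where the last is 1 read. The apparent loss at 30% αTC1 was 79.5 to 107% of the difference between the pure lines at these 5 peaks, which were chosen by that contrast, against a median of 40.8% over all βTC6 peaks, and at *Dhrs2* it was 84.4% already at 10%. Why these falls exceeded the mixed proportion was not tested.

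A stretch of chromosome 11 (chr11:109037675-111177459) gave almost no reads in αTC1, and closed chromatin and missing DNA cannot be told apart there. Its 54 consensus peaks included 53 βTC6 peaks. This was largely fixed by the choice, since the runs that bound the stretch and the βTC6 peaks were both picked from replicates 1 to 3. Of the 54 peaks in the stretch, 8 fell in the trend (1.24% of all peaks and 7.55% of βTC6 peaks did). At 30%, 1 was lower (0.158% of all peaks). It held 4 runs of 8 to 10 consecutive peaks, 35 in all, chosen for at most 3 reads in every αTC1 library of replicates 1 to 3 and a mean normalized read count of at least 5 in βTC6, in which αTC1 replicates 4 and 5 held 1 read in every peak, around *Rgs9*, a regulator of G protein signalling, *Prkar1a*, *Map2k6* and *Kcnj2* among others. Their mean normalized read count per peak was 17.6 and 16.1 in pure βTC6, 14.5 at 10% αTC1, 12.6 at 20% and 8.88 at 30%, from 4318, 6016, 3764, 3221 and 1850 reads. As a percent of the pure βTC6 mean these were 85.7, 74.7 and 52.6%, where pure replicates 4 and 5 stood at 104 and 95.7%. The loss was thus 14.4, 25.5 and 47.8% of the difference between the pure lines. The mean of each of the 4 runs lay below both pure libraries in each mixture. Single peaks did so for 27.2, 31.4 and 37.2% of all consensus peaks at 10, 20 and 30% αTC1. Among βTC6 peaks the shares were 40.8, 62.1 and 82.2%.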

How the data were processed

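The authors trimmed ATAC-seq reads, aligned them to mm9 with BWA 0.7.9a, called peaks with MACS2 2.1.0 and counted reads in consensus peaks with DiffBind 2.2.5, per the submitters' processing notes and the study's methods. The deposited ATAC-seq values are a TMM-normalized signal. Divided by each library's lowest value, 100% of them came out as whole reads (within 0.05). RNA-seq values are the deposited RSEM 1.2.12 expected counts, rounded here to whole numbers, and FPKM from the authors. RNA-seq genes had at least 1 FPKM in all 3 replicates of either line.

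Log2(value + 1) was tested with limma 3.58.1 in R 4.3.3 (trended variance, 7 libraries for each mixture against pure βTC6, 5 for the trend), and counts with edgeR 4.0.16, all with Benjamini-Hochberg adjustment at an FDR of 5%. Scripts were tested on simulated data. Loci sum the peaks nearest to a gene's start site (GENCODE, mm9). Sequences were read from the mm9 genome.

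The peaks named were the 10 αTC1 peaks with the largest t at 10%, the 5 strongest not called, the 5 βTC6 peaks with the most negative t at 30%, and the nearest and the strongest peak of each listed alpha gene, some of which are not reported here. The loci named were the 10 with the largest and the 5 with the most negative t, and genes of the lists. Members, lists and tests were chosen with earlier results of these data known. Alternatives changed the value added, filters, scaling, tools, pure libraries used and each replicate. Columns holding the authors' own comparisons were not used. Numbers of reads limit precision by counting error only.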

Additional observations from a re-analysis of the deposited data

How the results depend on the processing

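Replicates 1 to 3 gave 728 αTC1 and 1563 βTC6 peaks where 5 was added before the logarithm, and 12129 and 18937 where a log2 fold change over 1 sufficed. With 5 added, the peaks higher at 10, 20 and 30% were 0, 21 and 365, and those lower at 20 and 30% were 0 and 10. Among peaks with a mean of at least 5, 66 were higher at 10%, 717 higher and 0 lower at 20%, and 1850 rose in the trend. With the spread from all 10 pure libraries, 159 were higher and 4 lower at 10%, 1399 and 101 at 20%, and 4798 and 1302 at 30%. EdgeR on recovered reads called 107 higher at 10% and 843 at 20%. As 3 mixtures against 2 pure libraries, 372 rose and 1 fell, and with all 5 pure βTC6 libraries 2242 fell. Scaled by total reads in peaks, the median apparent shares were 13.4, 27.3 and 43.6%, and 358 loci fell. With a filter of 1 count, RNA-seq called 1020 and 2510 genes.

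Leaving out 1 library at a time gave 20 to 99 higher and 3 to 66 lower peaks at 10%, 221 to 665 and 22 to 103 at 20%, and 1256 to 2578 and 134 to 289 at 30%. It gave 0 to 5709 rising and 0 to 3845 falling peaks, 0 to 2480 rising and 0 to 1921 falling loci, and median shares of 10.9 to 13, 22.9 to 25.5 and 36.4 to 40.0%. The cause of these moves was not tested.

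Fitted log2 changes that were not called turned direction in some settings. Leaving out 1 library at a time, the start peak of *Irx2* ranged from -0.0973 to 0.180, of *Gc* from -0.210 to 0.743, of *Mafa* from -0.0281 to 0.293, of *Ins1* from -1.07 to 0.0308, of *Ucn3* from -0.186 to 0.531 and of *G6pc2* from -0.151 to 0.481. The loci of *G6pc2*, *Mafa* and *Ttr* ranged from -0.352 to 0.178, -0.229 to 0.178 and -0.0378 to 0.208. The *Irx2* start peak was at 0.0715 as 3 mixtures against 2 pure libraries, and *Ttr* at -0.0188 scaled by total reads in peaks.

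With the replicate number as a block, the choice gave 3135 and 8157 peaks and RNA-seq 503 and 1241 genes. Same-numbered samples of the lines shared only a number, with correlations of their deviations between -0.0468 and 0.0249, and mixtures had no partner. Single libraries of 5878022 to 10374903 reads in peaks limit what could be detected.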

Other observations

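The most read-rich consensus peak, chr2:98506405-98507478 near Gm10800, did not pass the trend test (adjusted p = 0.870). Its normalized read count was 27566 and 13192 in pure βTC6 replicates 4 and 5, 18075, 24100 and 32096 at 10, 20 and 30% αTC1, and 63812 and 47310 in pure αTC1. The mixtures rose in order of αTC1 content, and the 10 and 20% mixtures lay between the pure βTC6 libraries. In replicates 1 to 3 its mean was 8378 in αTC1 and 6243 in βTC6, so its level differed between groups of libraries. The cause was not tested.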
